A study of Mus musculus with 14 samples.

Results

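The PI3K-Akt-mTOR signalling genes were 29 mouse genes taken from a list of names and found in the files by coordinates, out of 18493 protein-coding genes with an mm9 locus. They were measured in LEPC, a cultured mouse cell line of strain C57BL/6 that the labels give as 3 passages old and that was grown with serum in every group. The miR-93-5p group overexpressed the microRNA, the mutant group overexpressed a mutated form of it, and the scr group was the control. RNA-seq and a pulldown of mRNAs recovered with the microRNA covered all 3 groups, and chromatin immunoprecipitation of H3K4me3, H3K27me3 and H3K9me3 covered the miR-93-5p and scr groups. The sample titles name overexpression for RNA-seq and chromatin immunoprecipitation alone. In the pulldown they name the microRNA, its mutated form or a control microRNA that interacts with the mRNAs. Of the 14 samples, the 2 input samples were not analysed here. Each combination of assay and group had 1 library, so no value has a replicate error, no test between groups was possible, and every difference is a difference between libraries. The sources used here do not say whether a group was 1 clone, which bases of the mutant were changed, or at what level the microRNA was expressed.

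The pathway carries signals from growth factors to cell growth. Insulin and insulin-like growth factor receptors recruit phosphoinositide 3-kinase (PI3K) through adaptor proteins, the lipid it makes brings the kinase Akt to the membrane, and Akt releases the brake that the TSC complex puts on mTOR complex 1, which drives protein synthesis. Lipid and protein phosphatases oppose the signal, and FoxO transcription factors are shut out of the nucleus by it. In liver the pathway carries the insulin response and is often overactive in hepatocellular carcinoma. MicroRNAs pair with mRNAs mainly through their seed, bases 2 to 8, and lower the stability or translation of the mRNAs they pair with.

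The seed of miR-93-5p is shown because it is the stretch through which the overexpressed microRNA would pair with any mRNA of the pathway. In the RefSeq table of 1738 mature mouse microRNAs (GRCm38.p6), 7 carried it, and the other 6 are given below with the seed in capitals.
miR-93-5p: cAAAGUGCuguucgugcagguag
miR-17-5p: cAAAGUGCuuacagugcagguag
miR-20a-5p: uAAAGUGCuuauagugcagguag
miR-20b-5p: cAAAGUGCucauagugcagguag
miR-106a-5p: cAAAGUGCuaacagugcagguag
miR-106b-5p: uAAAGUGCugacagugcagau
miR-6383: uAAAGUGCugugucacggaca
Counted from the 5′ end, miR-20b-5p matched miR-93-5p at 20 of 23 bases, and miR-17-5p, miR-20a-5p and miR-106a-5p each at 19. The match was 16 bases for miR-106b-5p, which lies beside miR-93-5p on chromosome 5 (138165574 to 138165596 for miR-93-5p and 138165787 to 138165807 for miR-106b-5p, both on the minus strand), and 10 for miR-6383. Target sites in the mRNAs were not searched here.

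RNA-seq values were FPKM (fragments scaled to the length of the transcript model and to the depth of the library) of loci assembled separately in each library, with a lower and an upper bound given for each. FPKM is a level per length, so levels of different genes can be set side by side. A locus was given to a gene if neither had a better partner and the overlap made up at least 0.5 of the length that the 2 span together. For ratios 1 was added to each FPKM before taking log2, and a gene was counted where it stood at least 2-fold apart. A second measure reads back from the width of the bounds how many fragments a locus held (implied fragments), and does not depend on model length. It falls too low where bounds are widened by fragments shared between isoforms. Summed over loci it came to between 14589704 and 19513879 for the RNA-seq libraries and between 3814082 and 5855469 for the pulldown libraries. The liver epithelial markers Krt8, Krt18, Sox9 and Spp1 were among those matched in all 3 RNA-seq libraries, as part of 7, 9 and 9 of 12 such markers in miR-93-5p, mutant and scr with summed levels of 1968, 2188 and 1568 FPKM, whereas Afp and Apoa1 were matched in none and Alb stood at or below 1.298 FPKM. None of 4 endothelial and none of 6 mesenchymal markers was matched, and of 6 leukocyte markers 1, 1 and 2 were, with sums of 1.16, 1.82 and 9.19 FPKM, most of it Csf1r in scr. What these markers contribute to any value below was not tested. In such bulk libraries fewer cells of a type and less RNA per cell cannot be told apart.

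Of the 29 genes, 26 could be compared in RNA-seq, among 8425 genes in all. In miR-93-5p 1 of them, Akt2, stood at least 2-fold above scr, where 2.97% of all genes did, and none stood 2-fold below it, against 3.86% of all genes. Over mutant no member was 2-fold higher (1.85% of all genes) or lower (1.77%), and in mutant over scr again none was higher (2.64%) or lower (3.63%). No member differed 2-fold in 1 direction from both other libraries, which 0.665% of all genes did upward and 0.878% downward. Small differences over scr leaned upward. The median log2 ratio of the members was 0.22 in miR-93-5p over scr, against 0.03 for all genes, and 18 of 26 members (69.2%) lay above 0, against 53.1% of all genes. The mutant library showed a similar lean over scr, with a median of 0.15 against 0.01 for all genes, while miR-93-5p over mutant had a median of 0.05 against 0.01. By implied fragments the median over scr was 0.11 in miR-93-5p and -0.036 in mutant, so the lean of the mutant library was not seen by that measure. Each pair of these 3 comparisons shares a library.

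**Figure D1:**
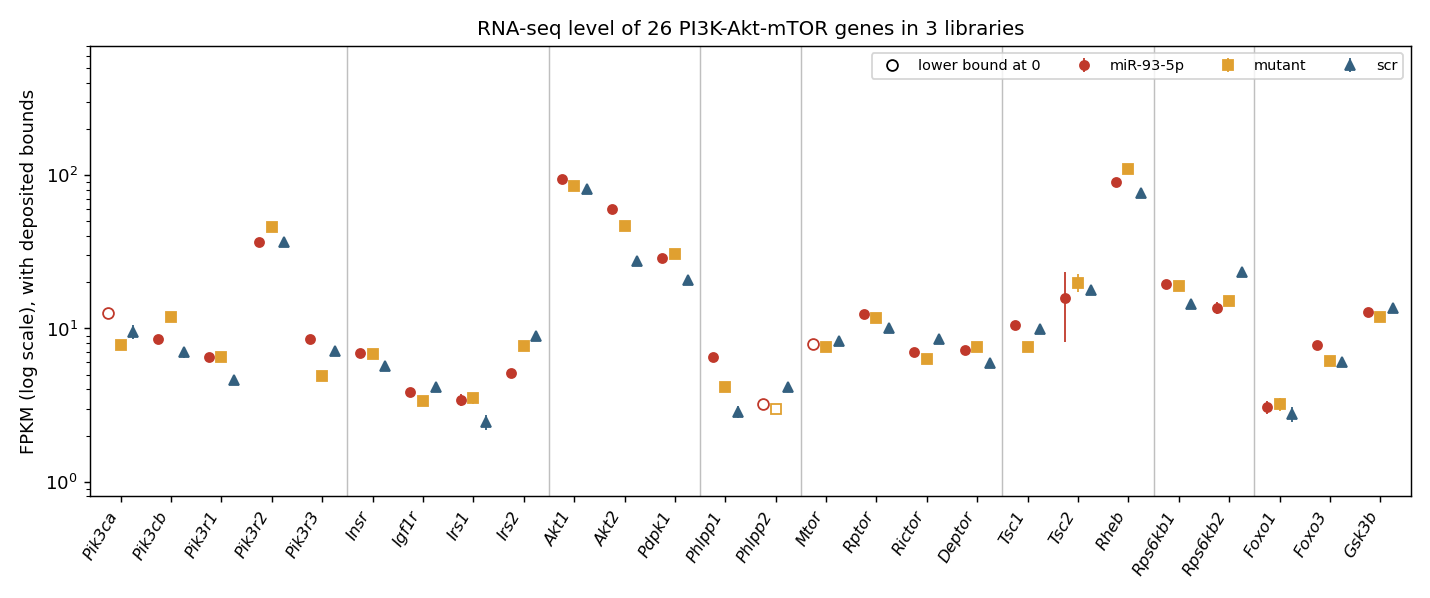
RNA-seq level (FPKM, log axis) of the 26 compared genes, ordered by role with grey lines between roles, in the miR-93-5p (circles), mutant (squares) and scr (triangles) libraries, with bars for the deposited bounds and open symbols where the lower bound is 0. Most genes lie within 2-fold across the 3 libraries; Akt2 at 60.7 FPKM in miR-93-5p against 27.4 in scr and Phlpp1 at 6.51 against 2.86 are spread widest over scr.

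PI3K is a catalytic subunit held by a regulatory one. Pik3ca, which encodes the catalytic subunit p110 alpha, stood at 12.6 FPKM in miR-93-5p, 7.78 in mutant and 9.51 in scr, but its upper bound in miR-93-5p was far above any level in the library, so that value is not usable. Pik3cb, for p110 beta, stood at 8.595 FPKM in miR-93-5p, 11.8 in mutant and 6.97 in scr, highest in mutant. Pik3cd, for the p110 delta subunit typical of leukocytes, had no overlapping locus in any of the 3 libraries. Among the regulatory subunits, Pik3r1 (p85 alpha) stood at 6.49, 6.51 and 4.62 FPKM in miR-93-5p, mutant and scr, with both overexpressing libraries above scr by 0.41 and 0.42 on the log2 scale. The most abundant subunit was Pik3r2 (p85 beta), at 36.9, 45.8 and 36.5 FPKM in the same order, where the locus ran past the gene in miR-93-5p and mutant and shared 0.61, 0.56 and 0.99 of the joint length. Pik3r3 (p55 gamma) stood at 8.48 FPKM in miR-93-5p, 4.89 in mutant and 7.15 in scr, and was the member furthest above mutant, by 0.69 with a counting error of 0.07. Leaving out Pik3ca, the subunits lay above scr in miR-93-5p by 0.01 (Pik3r2) to 0.41 (Pik3r1).

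The receptors and adaptors went different ways. Insr, the insulin receptor, stood at 6.88 FPKM in miR-93-5p, 6.85 in mutant and 5.71 in scr, and Igf1r, the insulin-like growth factor receptor, at 3.84, 3.35 and 4.18. Irs1 and Irs2 dock PI3K to these receptors. Irs1 was low throughout, at 3.43 FPKM in miR-93-5p, 3.51 in mutant and 2.46 in scr. Irs2 stood at 5.11 FPKM in miR-93-5p, 7.65 in mutant and 8.98 in scr, lowest in miR-93-5p by -0.71 on the log2 scale over scr and by -0.50 over mutant, with deposited bounds that did not overlap either. The implied fragments of Irs2 were 826, 2077 and 984 in the same order, and their log2 ratios were -0.30 over scr and -0.97 over mutant, so the direction was the same by both measures and the sizes were not.

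Akt1 and Akt2 encode the kinase at the centre of the pathway, and Pdpk1 encodes PDK1, which phosphorylates it. Akt1 stood at 94.0 FPKM (89.4 to 98.5) in miR-93-5p, 84.9 (81.3 to 88.4) in mutant and 81.5 (77.8 to 85.1) in scr. Its implied fragments of 1697, 2278 and 1964 gave a log2 ratio of -0.26 over scr, against 0.20 by FPKM. Akt2 stood at 60.7 FPKM (58.1 to 63.3) in miR-93-5p, 46.5 (44.2 to 48.9) in mutant and 27.4 (26.2 to 28.6) in scr. These bounds are apart for every pair of libraries, and the log2 ratio of Akt2 in miR-93-5p over scr was 1.12 with a counting error of 0.04. In implied fragments, however, Akt2 had 2163 in miR-93-5p, 1601 in mutant and 2162 in scr, a log2 ratio over scr of -0.05, and the matched locus covered almost the same span of chromosome 7 in the 3 libraries. The 2-fold difference in FPKM thus has no counterpart in the fragments, and why they part was not tested. Pdpk1 stood at 28.8 FPKM in miR-93-5p, 30.6 in mutant and 20.7 in scr. Its implied fragments of 5712, 1846 and 4084 put miR-93-5p 1.97 above mutant on the log2 scale, against -0.09 by FPKM. Why these measures part was not tested either.

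Of the phosphatases that oppose the pathway, Phlpp1 was higher in miR-93-5p than in mutant and scr by both measures. It removes a phosphate from Akt, and stood at 6.51 FPKM (6.11 to 6.92) in miR-93-5p, 4.13 (3.86 to 4.41) in mutant and 2.86 (2.59 to 3.13) in scr. The 3 ranges are apart, and the log2 ratio of miR-93-5p was 0.96 over scr and 0.55 over mutant, with counting errors of 0.08 and 0.07. Implied fragments of 1019, 902 and 446 gave 1.13 over scr and 0.52 over mutant, so that Phlpp1 was the 1 member at least 2-fold above scr by fragments, where 7.56% of all genes were. Its relative Phlpp2 stood at 3.21, 2.97 and 4.17 FPKM in miR-93-5p, mutant and scr, with unusable bounds in miR-93-5p and mutant. Inpp4b, a lipid phosphatase that acts on a product of PI3K, was not compared: its loci lay in the last part of the gene, between 0.41 and 1.38 FPKM, and the longest of them shared 0.17, 0.36 and 0.33 of the joint length in miR-93-5p, mutant and scr.

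**Figure D2:**
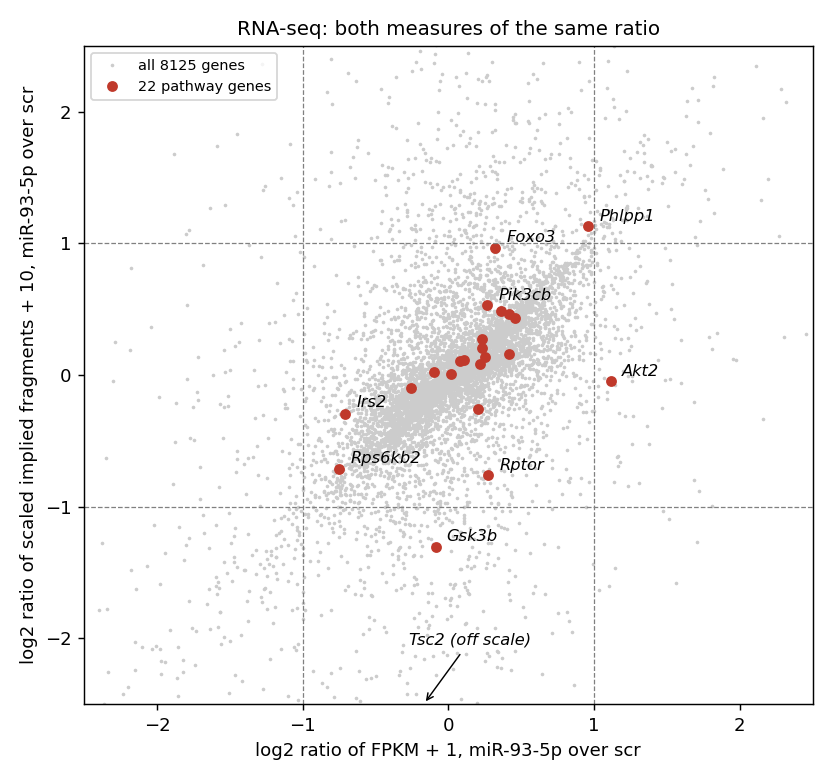
RNA-seq log2 ratio of miR-93-5p over scr by FPKM plus 1 (x axis) and by scaled implied fragments plus 10 (y axis) for 8125 genes (grey) and for pathway genes (red), with dashed lines at 2-fold. Phlpp1 lies near 1 on both axes, Akt2 at 1.12 on the x axis and -0.05 on the y axis, and Tsc2 lies below the plotted range.

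mTOR works in 2 complexes, of which Rptor marks the first and Rictor the second, and Deptor inhibits both. Mtor stood at 7.92 FPKM in miR-93-5p, 7.56 in mutant and 8.30 in scr, with an unusable bound in miR-93-5p. Rptor stood at 12.5, 11.6 and 10.1 FPKM in the same order and Rictor at 7.02, 6.29 and 8.58, so Rptor was highest and Rictor not highest in miR-93-5p. Deptor stood at 7.26, 7.52 and 5.94 FPKM. On the log2 scale the 4 were apart from scr by between -0.26 and 0.27. Rptor was 1 of the genes whose fragments went the other way, with 1166, 3173 and 1916 and a log2 ratio of -0.76 over scr.

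Tsc1 and Tsc2 form the complex that holds back Rheb, the small GTPase that switches mTOR complex 1 on. Rheb was among the most abundant members, at 90.4 FPKM in miR-93-5p, 110 in mutant and 76.9 in scr, and was highest in mutant. Tsc1 stood at 10.5, 7.57 and 9.88 FPKM in miR-93-5p, mutant and scr, lowest in mutant. Tsc2 stood at 15.8 FPKM (8.17 to 23.4) in miR-93-5p, 19.9 (17.2 to 22.7) in mutant and 17.9 (16.8 to 18.9) in scr, ranges that all overlap. Its implied fragments of 17.2, 210 and 1213 follow from those wide bounds and are not a measure of its level.

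Among the substrates of mTOR complex 1, the kinase S6K1 (Rps6kb1) stood at 19.6 FPKM in miR-93-5p, 19.1 in mutant and 14.4 in scr. S6K2 (Rps6kb2) stood at 13.6, 15.1 and 23.5 FPKM in the same order, the lowest ratio of any member over scr at -0.75 in miR-93-5p, and at -0.61 in mutant. By fragments Rps6kb2 gave -0.71 in miR-93-5p and -0.56 in mutant, whereas Rps6kb1 gave 0.16 and 0.02 over scr, against 0.42 and 0.38 by FPKM. Eif4ebp1 encodes 4E-BP1, which blocks translation until mTOR phosphorylates it, and was not compared. In miR-93-5p (139 FPKM) and mutant (58.6) its locus ran 39499 and 41759 bp past the gene on chromosome 8, whereas in scr (118) it ended inside it.

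Of the Akt substrates, Foxo1 stood at 3.06 FPKM in miR-93-5p, 3.19 in mutant and 2.76 in scr. Foxo3 stood at 7.77 FPKM (7.36 to 8.17) in miR-93-5p, 6.11 (5.71 to 6.51) in mutant and 6.01 (5.57 to 6.46) in scr, above mutant by 0.30 and above scr by 0.32 on the log2 scale. By fragments, 1475, 937 and 726, the differences of Foxo3 were larger, 1.00 over mutant and 0.97 over scr. Gsk3b, the kinase that Akt switches off, stood at 12.8, 11.9 and 13.7 FPKM in miR-93-5p, mutant and scr. Its fragments of 1266, 1771 and 3036 gave -1.302 over scr, at least 2-fold below it, as were 7.68% of all genes. The 1 other member past that limit was Tsc2, on the wide bounds given above.

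The deposited bounds give a finer reading than the 2-fold rule, but they cover counting within a library alone. In miR-93-5p over scr they did not overlap for 14 members with the higher level (35.0% of all genes) and 3 with the lower level (28.9%), the 3 being Rictor, Rps6kb2 and Irs2. Set against both other libraries, miR-93-5p was highest with bounds apart for Pik3r3, Akt1, Akt2, Phlpp1 and Foxo3, 5 of 26 members where 15.3% of all genes were. It was lowest for Irs2, 1 member, against 10.7% of all genes.

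Fewer of these genes could be matched in the pulldown, although Pik3cd and Inpp4b alone had no overlapping locus in any of its libraries. Only 9 of the 29 were matched in all 3 pulldown libraries, among 5246 genes, and no member was at least 2-fold higher (1.64% of all genes) or lower (11.9%) in miR-93-5p against mutant and scr alike. The miR-93-5p pulldown library stood apart from the others. Its loci had a median span of 2121 bp, against 9086 in mutant and 9176 in scr, and over all genes its ratios were centred on -0.48 against scr and -0.43 against mutant on the log2 scale, where mutant over scr was centred on -0.06. Ratios below are as computed and are to be read against those shifts.

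Over scr, the pulldown of miR-93-5p held 1 member at least 2-fold higher, Rps6kb1 (11.8% of all genes were), and 3 at least 2-fold lower, Pik3r2, Akt1 and Akt2 (33.5%). Rps6kb1 stood at 38.6 FPKM (34.5 to 42.8) in miR-93-5p, 39.5 (33.4 to 45.7) in mutant and 17.9 (14.5 to 21.3) in scr. Rheb showed the same order, with 149 FPKM in miR-93-5p, 157 in mutant and 83.1 in scr. As computed, the log2 ratios over scr were 1.07 for Rps6kb1 and 0.84 for Rheb in miR-93-5p, and 1.10 and 0.91 in mutant. Relative to the median of all genes they were 1.54 and 1.31 in miR-93-5p, and 1.16 and 0.96 in mutant, so that Rheb too was at least 2-fold above scr in miR-93-5p. On that footing Akt2 was no longer 2-fold below scr, at -0.90. Levels were highest in scr for Akt1, at 20.1 FPKM in miR-93-5p, 25.2 in mutant and 92.5 in scr, for Pik3r2, at 7.82, 8.46 and 36.3, and for Akt2, at 7.09, 6.48 and 20.0.

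**Figure D3:**
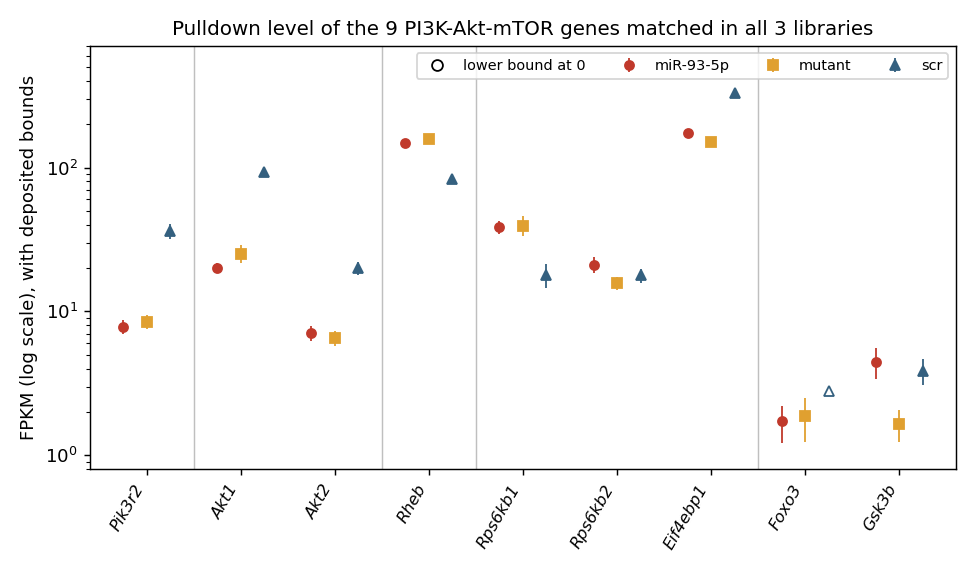
Pulldown level (FPKM, log axis) of the 9 genes matched in all 3 libraries, in miR-93-5p (circles), mutant (squares) and scr (triangles), with bars for the deposited bounds and an open symbol where the lower bound is 0. The miR-93-5p and mutant libraries lie close together for most genes; Gsk3b stands at 4.48 FPKM in miR-93-5p and 1.65 in mutant.

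Set against the mutant, the pulldown of miR-93-5p held 1 member at least 2-fold higher, Gsk3b (4.88% of all genes), and none lower (26.5%). Gsk3b stood at 4.48 FPKM (3.39 to 5.56) in miR-93-5p, 1.65 (1.24 to 2.06) in mutant and 3.85 (3.06 to 4.65) in scr, so miR-93-5p and scr overlapped and mutant was below both. Eif4ebp1 stood at 175, 151 and 332 FPKM in the same order. Rps6kb2 stood at 21.1, 15.7 and 17.8 FPKM. Foxo3 was low, at 1.72, 1.87 and 2.79 FPKM with a lower bound of 0 in scr. In mutant over scr 1 member was at least 2-fold higher (21.8% of all genes) and 4 lower (22.9%), the 4 being Pik3r2, Akt1, Akt2 and Eif4ebp1.

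Implied fragments of the matched loci turned some of these ratios round. Pik3r2 had 308, 351 and 279 fragments in miR-93-5p, mutant and scr, a log2 ratio over scr of 0.75 where FPKM gave -2.08. Akt2 had 262, 279 and 346 fragments, or 0.22 after scaling where FPKM gave -1.38. Akt1 kept its direction over scr, with 563, 190 and 1843 fragments and ratios of -1.07 by fragments and -2.15 by FPKM, although by fragments it lay 2.32 above mutant. Rps6kb1, with 348, 165 and 110 fragments, was 2.18 above scr and 1.84 above mutant, the 1 member at least 2-fold above both by this measure. Rheb, with 1247, 1237 and 773, was 1.303 above scr and 0.84 above mutant.

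The matching kept 11 members in the miR-93-5p pulldown, 16 in mutant and 14 in scr. Fragments were therefore also summed over every locus with at least 0.5 of its length inside the gene, a measure added after the data were seen. It covered 24 members and 8757 genes. In miR-93-5p 21 of the 24 lay above mutant (87.5%, against 50.01% of all genes) with a median log2 ratio of 0.95, and 16 lay above scr (66.7%, against 50.3%) with a median of 0.51. At least 2-fold differences numbered 10 higher over mutant (15.5% of all genes) and none lower (16.2%), and 7 higher (21.5%) and 4 lower (22.6%) over scr. The mutant pulldown, set against scr, had a median of -0.15 for the same members. By FPKM 4 of the 9 matched members lay above mutant in miR-93-5p (44.4%, against 31.6% of all genes), with a median of -0.03 against -0.43. The sums rest on unlike numbers of loci. In miR-93-5p, mutant and scr these were 4, 1 and 2 for Pdpk1, 6, 4 and 3 for Gsk3b, and 1, 1 and 5 for Igf1r. What that does to the ratios was not tested. Files of the 2 assays were normalized separately, and with 1 library a group the spread that repeat pulldowns would show is not known.

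After scaling to a median ratio of 1 between libraries, summed fragments of 6 members were at least 2-fold above both others (6.06% of all genes). None was at least 2-fold below both (8.36%). The fragments printed here are before scaling, and among the 6 only those of Gsk3b and Rps6kb1 are 2-fold above both without it. For Pik3cb the scaled log2 ratios were 1.18 over scr and 1.08 over mutant. Gsk3b had 549 in miR-93-5p, 175 in mutant and 222 in scr. Rps6kb1 had 348, 165 and 110, and Pdpk1 had 418, 295 and 183. Each of these 3 genes was highest in miR-93-5p although that library was the shallowest. Pik3cb followed with 146, 104 and 96.0, and Phlpp2 with 46.7, 14.7 and 28.0. Rictor had 132, 81.9 and 70.3, beside 1 further locus in miR-93-5p and 1 in mutant whose bounds were unusable. Far below scr stood Igf1r, with 22.8, 11.9 and 206 fragments in miR-93-5p, mutant and scr, and Rptor with 45.8, 78.0 and 282, Irs2 with 67.0, 48.6 and 232, and Akt1.

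**Figure D4:**
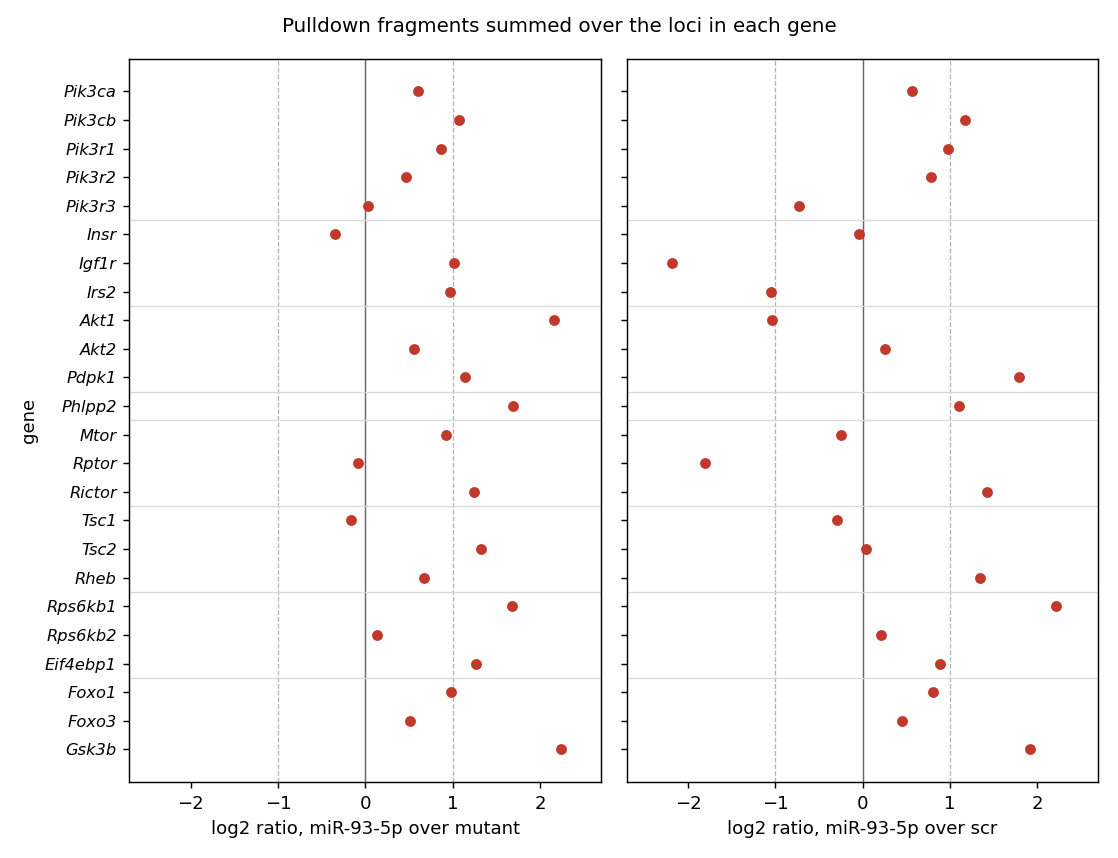
Log2 ratio of scaled pulldown fragments plus 10, summed over the loci in each gene, for 24 genes ordered by role, in miR-93-5p over mutant (left) and over scr (right), with dashed lines at 2-fold. On the left 21 of 24 points lie above 0; on the right 16 do, with Igf1r at -2.18 and Rps6kb1 at 2.21 at the ends.

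The 5 remaining members had too few fragments for this. Pik3cd and Inpp4b had no locus with at least 0.5 of its length inside the gene in any pulldown library. Deptor had one in scr alone, with 11.9 fragments. Phlpp1 had 20.0 fragments in miR-93-5p and 59.4 in scr, and Irs1 had 11 and 38, both with none in mutant. For Phlpp1, whose RNA-seq level was highest in miR-93-5p, the pulldown fragments were thus higher in scr.

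Pulldown and RNA-seq levels of groups with the same name were set side by side for 8 members, as differences of log2 FPKM plus 1 between files normalized separately. In miR-93-5p the difference was -2.10 for Pik3r2, -2.17 for Akt1 and -2.93 for Akt2, where the median of 4513 genes was -0.76, and 0.72 for Rheb and 0.94 for Rps6kb1. In mutant the same 5 genes stood at -2.31, -1.71, -2.67, 0.50 and 1.01, against a median of -0.35. In scr they stood at -0.01, 0.18, -0.44, 0.11 and 0.29, against a median of -0.25. The other 3 did not share one pattern. Rps6kb2 stood at 0.60 in miR-93-5p, 0.05 in mutant and -0.38 in scr, Foxo3 at -1.69, -1.31 and -0.89, and Gsk3b at -1.34, -2.28 and -1.60. The median of all genes was also smallest in size in scr, so the values are to be read against those medians. They rest on FPKM alone. Over scr, implied fragments of miR-93-5p reversed the pulldown ratios of Pik3r2 (0.75) and Akt2 (0.22) and the RNA-seq ratio of Akt2 (-0.05).

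H3K4me3, the mark of active promoters, lay over nearly every one of these genes. A deposited peak overlapped 28 of 29 genes in miR-93-5p, where 56.6% of all genes had one, and the same 28 in scr (56.3%). The exception in both was Pik3cd. Strand was known for 25 members, through a RefSeq table, and the gene start was covered by a peak in 22 of them in miR-93-5p and in the same 22 in scr, against 51.1% and 51.5% of 14811 genes. The starts without one belonged to Pik3cd, Inpp4b and Pdpk1. A score of exactly 3100 was shared by 8853 peaks of miR-93-5p and 8721 of scr, with highest scores of 3230 and 3233, so scores do not rank most of the strong peaks. The start peak was wider in miR-93-5p than in scr for 16 of 22 members, where this held for 61.7% of all genes, and its median width was 4132 bp in miR-93-5p and 3563 bp in scr, against 2969 and 2848 bp over all genes.

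Promoters are shown for Phlpp1, whose RNA stood above scr by both measures, and for Irs1, Pdpk1 and Pik3cd, whose marks are described below, as 250 bases before to 50 after a RefSeq start on GRCm38.p6, with each CG in capitals. Peaks are in mm9 coordinates and were not moved between builds.
Phlpp1, chr1:106171619-106171918, plus strand: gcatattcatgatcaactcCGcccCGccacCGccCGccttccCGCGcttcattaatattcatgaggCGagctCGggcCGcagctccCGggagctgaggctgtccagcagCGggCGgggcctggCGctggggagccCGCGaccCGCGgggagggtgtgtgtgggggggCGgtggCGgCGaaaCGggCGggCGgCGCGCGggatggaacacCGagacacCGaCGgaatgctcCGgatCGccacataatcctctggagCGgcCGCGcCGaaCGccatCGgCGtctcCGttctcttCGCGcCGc
Irs1, chr1:82291390-82291689, minus strand: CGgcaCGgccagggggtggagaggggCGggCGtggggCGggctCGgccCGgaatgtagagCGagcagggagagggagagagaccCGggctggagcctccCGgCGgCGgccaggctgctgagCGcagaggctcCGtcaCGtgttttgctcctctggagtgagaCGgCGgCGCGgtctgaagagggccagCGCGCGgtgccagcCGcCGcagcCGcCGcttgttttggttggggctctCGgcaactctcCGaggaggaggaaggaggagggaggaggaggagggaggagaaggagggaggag
Pdpk1 first start, chr17:24150873-24151172, minus strand: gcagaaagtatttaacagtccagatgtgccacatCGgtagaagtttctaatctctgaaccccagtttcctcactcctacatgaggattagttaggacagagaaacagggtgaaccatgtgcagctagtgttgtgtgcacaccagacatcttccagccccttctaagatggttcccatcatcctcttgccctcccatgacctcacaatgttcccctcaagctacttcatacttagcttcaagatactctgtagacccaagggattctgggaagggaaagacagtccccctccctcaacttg
Pdpk1 second start, chr17:24141545-24141844, minus strand: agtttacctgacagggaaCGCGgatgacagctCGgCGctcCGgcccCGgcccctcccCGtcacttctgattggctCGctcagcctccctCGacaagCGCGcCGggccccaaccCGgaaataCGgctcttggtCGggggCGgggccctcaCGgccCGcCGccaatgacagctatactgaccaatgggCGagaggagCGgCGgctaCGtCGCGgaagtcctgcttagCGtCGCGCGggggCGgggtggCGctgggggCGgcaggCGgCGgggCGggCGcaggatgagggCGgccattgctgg
Pik3cd first start, chr4:149698659-149698958, minus strand: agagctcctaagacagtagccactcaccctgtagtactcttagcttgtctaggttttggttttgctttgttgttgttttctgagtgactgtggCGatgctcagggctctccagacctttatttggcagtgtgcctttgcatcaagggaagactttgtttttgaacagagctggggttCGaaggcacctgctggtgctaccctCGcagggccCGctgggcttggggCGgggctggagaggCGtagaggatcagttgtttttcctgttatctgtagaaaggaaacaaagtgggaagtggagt
They hold 42 CG in Phlpp1, 28 in Irs1, 1 and 37 at the first and second start of Pdpk1, and 6 at the first start of Pik3cd. The 35 promoters listed for 25 members had a median of 25 CG, against 13 over 21263 promoters of protein-coding genes. The GC box GGGCGG was found on either strand in 23 of the 35 (65.7%), against 46.2% of all promoters, among them those of Phlpp1, Irs1, the second start of Pdpk1 and the first of Pik3cd. The TATA box TATAAA was found on either strand in 2 of the 35 (5.71%), against 12.6%. A match describes the letters alone.

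Pdpk1 (mm9 chromosome 17, 24210647 to 24287891) had 2 H3K4me3 peaks in each condition. One lay from 8061 to 11964 bp after the mm9 start in miR-93-5p and from 8234 to 10982 bp in scr. The other ran past the far end of the gene, from 76963 to 79617 bp in miR-93-5p and from 77013 to 79365 bp in scr. Most of its length lay outside the gene in both conditions. In GRCm38.p6 the second RefSeq start, the one with 37 CG, lies 9328 bp after the first, so the nearer peak lay at the distance of the second start. Akt2 had the usual start peak in both conditions and a second one, 14921 to 17545 bp after the start with a score of 130, in miR-93-5p alone. RefSeq lists Akt2 starts 14245 and 15784 bp after the first, with 5 and 2 CG.

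Irs1 (mm9 chromosome 1, 82229676 to 82287991) was the 1 member whose start lay under both an activating and a repressive mark. H3K4me3 covered it from -1022 to 1906 bp of the start in miR-93-5p and from -951 to 1685 bp in scr, with negative distances before the start. H3K9me3, a mark of silenced chromatin, covered it from -1992 to 5369 bp in miR-93-5p, a peak 7362 bp wide, and from -241 to 5273 bp in scr, 5515 bp wide. An H3K9me3 peak covered the start of 3.61% of all genes in miR-93-5p and of 2.32% in scr, and peaks of both marks covered 0.513% and 0.331%. Both libraries of both marks showed it for 30 of 14811 genes, Irs1 among them. The mRNA of Irs1 stood at 3.43 FPKM in miR-93-5p and 2.46 in scr, among the lowest levels of the pathway in both.

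**Figure D5:**
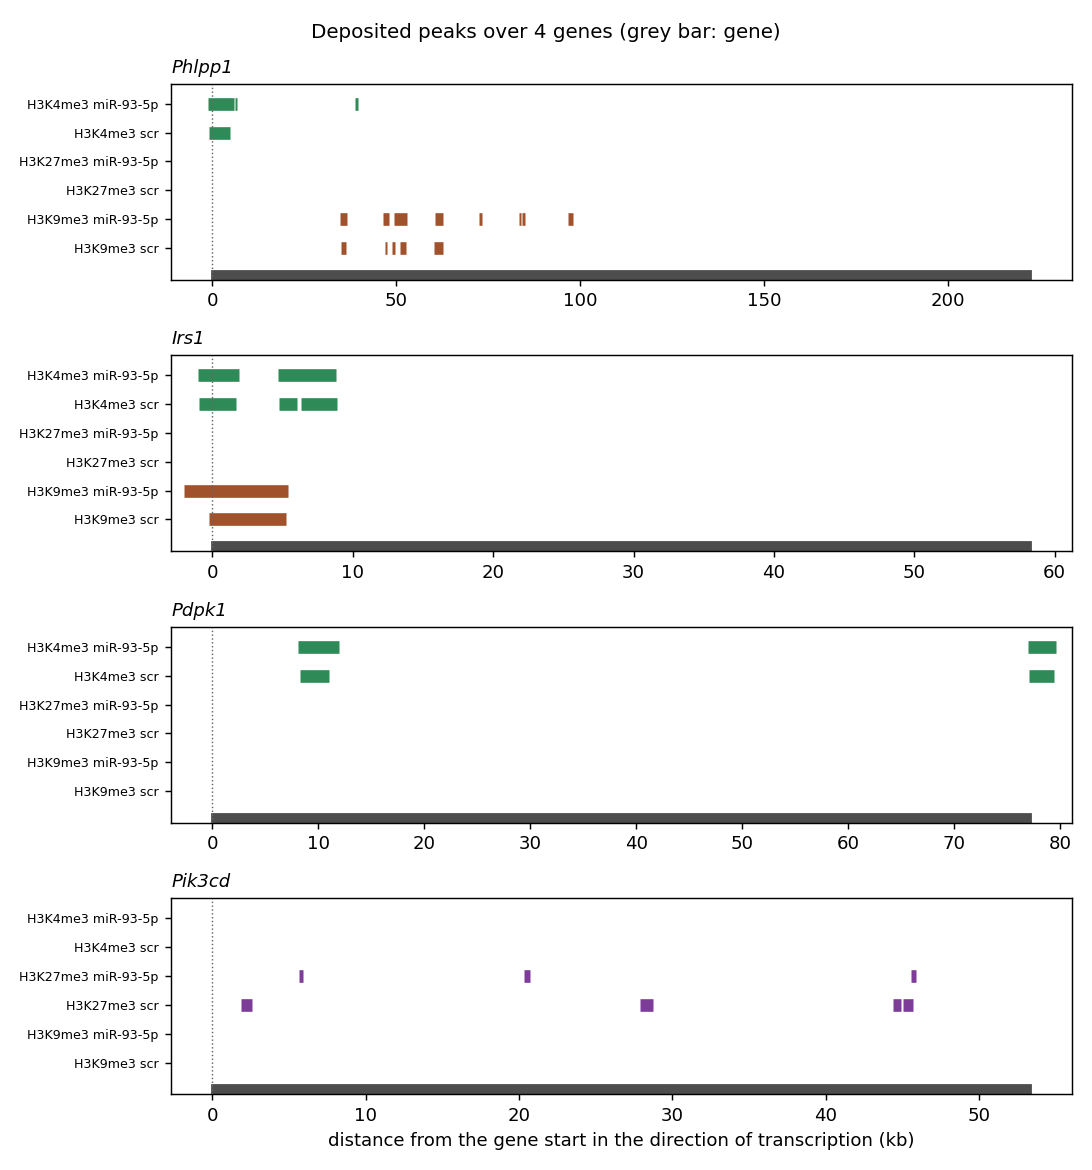
Deposited H3K4me3 (green), H3K27me3 (purple) and H3K9me3 (brown) peaks of miR-93-5p and scr over Phlpp1, Irs1, Pdpk1 and Pik3cd by distance from the mm9 gene start (kb, in the direction of transcription), with the gene as a grey bar. H3K4me3 sits at the start of Phlpp1 and Irs1, from 8.06 kb inside Pdpk1 and near its far end, and nowhere over Pik3cd, and H3K9me3 covers the Irs1 start in both conditions.

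H3K27me3, the Polycomb mark, lay over the genes with the least RNA. It overlapped Pik3cd and Inpp4b in miR-93-5p and the same 2 in scr, against 19.0% and 20.4% of all genes. Pik3cd (mm9 chromosome 4, 149023277 to 149076680) had 3 peaks covering 969 bp in miR-93-5p and 4 covering 2780 bp in scr. Inpp4b (mm9 chromosome 8, 83866455 to 84648935) had 3 peaks covering 1008 bp in miR-93-5p and 14 covering 13050 bp in scr. Peaks were narrower throughout the miR-93-5p list, with a median width of 473 bp against 1049 in scr and 23684648 bp covered in all against 60013714. No peak over either gene scored 100 or more in miR-93-5p, and both genes had one in scr. Inpp4b also had H3K4me3 inside the gene, the nearest peak starting 413942 bp after the start in miR-93-5p and 414194 bp after it in scr. The start of the Inpp4b RNA-seq loci lay beyond that point in every library.

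H3K9me3 overlapped 14 members in miR-93-5p (20.2% of all genes) and 12 in scr (15.4%). It was found in miR-93-5p alone over Pik3r1, Foxo1 and Insr, 3 of 29 where 7.21% of all genes were, and in scr alone over Eif4ebp1, 1 of 29 against 2.36%. The miR-93-5p list held 25879 peaks covering 39236756 bp and the scr list 15888 covering 21558002 bp, so more genes had a peak in it throughout. Phlpp1 (mm9 chromosome 1, 108068329 to 108290827) had 8 H3K9me3 peaks covering 12795 bp in miR-93-5p and 5 covering 7352 bp in scr, none nearer than 34768 bp to its start. Gsk3b had 6 and 5, and Pik3ca 3 and 1, the first of these beginning 6721 bp after the start in miR-93-5p and 8755 bp after it in scr. Long genes offer more room for a peak, and gene length was not taken into account.

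Of 74 other genes of the pathway, 57 had values in all RNA-seq libraries and 28 in all pulldown libraries. In RNA-seq 3 of the 57 were at least 2-fold higher in miR-93-5p than in scr (2.97% of all genes) and 3 lower (3.86%), and 1 was higher (1.85%) and 2 lower (1.77%) than in mutant. The 1 gene above both (0.665% of all genes) was Thada, whose place in the pathway is not established, at 19.8 FPKM in miR-93-5p, 8.91 in mutant with an unusable bound, and 4.62 in scr. In the pulldown none was above both and 3 were below both, which 11.9% of all genes were. Pdcd4, an inhibitor of translation that S6K1 marks for destruction, stood at 13.0 FPKM in miR-93-5p, 67.6 in mutant and 28.0 in scr. Sesn3, a stress-induced inhibitor of mTOR complex 1, stood at 1.18, 3.41 and 5.03 FPKM, and Rraga, a GTPase that brings that complex to the lysosome, at 11.8, 32.2 and 29.4. By implied fragments the ratios of these 3 genes over scr were -0.37, -1.85 and -0.54, and Sesn3 alone remained 2-fold below both, on 17.0 fragments in miR-93-5p.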

How the data were processed

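Mouse LEPC cells were measured by RNA-seq, by a pulldown of mRNAs recovered with the microRNA and by chromatin immunoprecipitation, with 1 library for each assay and group. The deposited RNA values are FPKM per assembled locus with lower and upper bounds, per the file headers. TopHat2, Cufflinks, Cuffdiff, CASAVA 1.4, Bowtie and MACS are named together with mm9 in a list without settings, per the submitters' processing notes. The deposited peak lists, 1 for each mark and group, give a score per peak from 50 upward, per the values in the files. Whether the input samples were used in calling them is not known here. RNA-seq loci and peaks follow mm9. Pulldown loci follow GRCm38 and were named through RefSeq GRCm38.p6, and mm9 gene loci came from the identifier rows of the pulldown files. Loci carry no strand, so overlapping genes cannot be told apart, and a locus built over 2 neighbours cannot be divided.

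Genes were compared with a mean FPKM of at least 1 in 3 matched loci. Implied fragments, of which at least 3 were needed in each library, were brought to a common scale, with a median ratio of 1 between libraries, and 10 was added before ratios. A counting error is the standard error of a log2 ratio that the bounds give, and covers counting alone. The median for the members over scr was 0.06 for RNA-seq and 0.12 for pulldown values. A peak counted for a gene from an overlap of 1 bp. All 29 genes are named, and other genes of the pathway only where miR-93-5p was at least 2-fold from both libraries. The genes, lists and thresholds were chosen with earlier results of these data known. Matching and ratios were run on simulated data with 1 locus per gene and bounds set by counting alone. Split loci, bounds widened by isoforms and sums over loci were not simulated, so that run does not cover them. Alternatives were another pseudocount, stricter and looser matching, no minimum FPKM, rescaling to a median ratio of 0, implied fragments, and for peaks a higher score, a 2000 bp extension and a larger overlap. Python 3.11.15, pandas 2.3.3, numpy 2.4.6 and matplotlib 3.10.9 were used.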

Additional observations from a re-analysis of the deposited data

How the results depend on the processing

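No paired analysis was possible because each assay and group had 1 library. Matching, minimum and pseudocount moved few RNA-seq values: a pseudocount of 0.1 counted 2 members at least 2-fold apart over scr (Phlpp1 joined Akt2), and taking the largest overlap with no minimum counted 1 over mutant. RNA-seq implied fragments counted 3 members over scr, 3 over mutant, 3 in mutant over scr and 1 from both, with medians of 0.11 over scr and -0.036 in mutant over scr. Summed over loci they counted 5, 6, 4 and 3, with medians of 0.083 over scr, -0.053 over mutant and -0.081 in mutant over scr. The 1 from both was Tsc2 (3.78% of all genes were lower than both), and the 3 were Tsc2, Pik3ca and Inpp4b (3.92%). The bounds of Tsc2 are wide, and Pik3ca and Inpp4b each have a miR-93-5p locus with a lower bound of 0. Akt2 over scr reversed in RNA-seq, to -0.046 in its matched locus and -0.034 summed.

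In the pulldown, where 9 members were compared, the median log2 ratios were -0.48 over scr, -0.03 over mutant and -0.87 in mutant over scr. A pseudocount of 0.1 gave -0.67 over scr and -1.14 in mutant over scr, and a shared length of at least 0.9 gave -1.004 in mutant over scr. With the largest overlap and no minimum, 24 members had medians of 0.055, 0.44 and -0.40, with 8 at least 2-fold apart over scr, 5 over mutant and 2 from both. Rescaling all genes to a median ratio of 0 gave 0.00049 over scr and 0.39 over mutant. It ended the 2-fold call of Akt2 over scr (-0.90) and added Rheb (1.31). Implied fragments gave 0.49, 0.82 and -0.31, with 3 over mutant, 1 in mutant over scr and 1 from both, and summed over loci 0.51, 0.95 and -0.15, with 11 over scr, 10 over mutant and 6 from both. Pik3r2 over scr reversed to 0.75 and 0.78 (matched, summed), Akt2 over scr to 0.22 and 0.26, and Pik3r2 in mutant over scr to 0.12 and 0.31. The cause was not tested. Of 11 ratios at least 2-fold in FPKM over both assays, 3 stayed so in implied fragments. Peaks scoring at least 100 left 0 members with H3K27me3 in miR-93-5p, and no other count of members with a peak moved by over 1.5 times.

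The pulldown was the shallower assay, and 20 of 29 members were not matched in all 3 of its libraries.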
